A study of Mus musculus with 9 samples.

Results

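The genes described here make, move, break down and sense acetylcholine in the striatum of R6/2 mice. The set holds 10 named genes, which are Chat, Slc18a3, Slc5a7, Ache, Lhx8 and the muscarinic receptor genes Chrm1 to Chrm5, and each was measured by the probe sets that the platform annotation assigns to that gene alone. Of these, 8 genes had such a probe set, among 18193 genes in all. Chrm1 had 2 probe sets and the others 1, so 9 probe sets were followed. Chrm2 and Chrm5 were not analysed here.

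Striatal RNA of 9 females, of C57Bl/6 / CBA strain and 12 weeks old, was hybridised to 1 array per mouse. The 4 wild-type mice (46, 47, 49 and 66) were 85 days old. The 5 R6/2 mice carry a transgene with the first exon of human huntingtin and an expanded CAG repeat, a model of Huntington disease that expresses the fragment throughout the body rather than in 1 cell type. R62_86 was 85 days old and R62_95, R62_105, R62_107 and R62_109 were 83 days old. The comparison asks how striatal transcripts differed between R6/2 and age-matched wild-type mice. Each array is a separate mouse by its label. Values are log2 expression after RMA normalization, and differences are given as R6/2 minus wild-type on that scale. Defining markers of striatal spiny neurons were bright in all 9 mice.

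Acetylcholine in the striatum comes mainly from large, sparse cholinergic interneurons with very wide axonal fields. Choline enters the terminal through the transporter encoded by Slc5a7, choline acetyltransferase (Chat) turns it into acetylcholine, the vesicular transporter encoded by Slc18a3 loads it, and acetylcholinesterase (Ache) ends the signal. Lhx8 encodes a LIM homeodomain transcription factor that specifies these interneurons. Muscarinic receptors are G protein-coupled. M1 and M3 act through the Gq protein and phospholipase C, and M4 acts through Gi to lower cyclic AMP. Most striatal neurons are spiny projection neurons, which carry M1, and those of the direct pathway also carry M4. Chat and Slc18a3 form 1 cholinergic locus, in which Slc18a3 lies within the first intron of Chat and is read from the same strand.

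The sequences just before the annotated starts are shown for the measured genes that fell and have an entry in the promoter table, and for Chat, which shares its locus with Slc18a3. Each is the 250 bases before the start in RefSeq on GRCm38.p6, read along the gene's own strand. Slc5a7 lies on the minus strand at chr17:54299035-54299284, Slc18a3 at chr14:32464851-32465100 (minus), Chat at chr14:32465910-32466159 (minus), Lhx8 at chr3:154330561-154330810 (minus) and Chrm4 at chr2:91921939-91922188 (plus). Capitals mark matches to the motif letters named in the next paragraph.
Slc5a7: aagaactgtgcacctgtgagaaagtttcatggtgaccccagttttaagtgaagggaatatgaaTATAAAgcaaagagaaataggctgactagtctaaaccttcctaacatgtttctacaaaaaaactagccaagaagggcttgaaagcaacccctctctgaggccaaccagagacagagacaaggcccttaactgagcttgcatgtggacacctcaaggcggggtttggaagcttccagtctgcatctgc
Slc18a3: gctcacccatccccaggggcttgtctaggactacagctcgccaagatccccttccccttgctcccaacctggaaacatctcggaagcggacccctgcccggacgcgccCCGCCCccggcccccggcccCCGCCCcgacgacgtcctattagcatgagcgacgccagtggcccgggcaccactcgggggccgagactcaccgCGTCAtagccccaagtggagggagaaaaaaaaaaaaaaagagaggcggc
Chat: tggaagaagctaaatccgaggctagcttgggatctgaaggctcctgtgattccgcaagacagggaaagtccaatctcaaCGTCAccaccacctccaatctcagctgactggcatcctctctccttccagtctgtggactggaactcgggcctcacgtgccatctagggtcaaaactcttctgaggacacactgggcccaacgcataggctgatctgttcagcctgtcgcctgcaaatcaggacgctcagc
Lhx8: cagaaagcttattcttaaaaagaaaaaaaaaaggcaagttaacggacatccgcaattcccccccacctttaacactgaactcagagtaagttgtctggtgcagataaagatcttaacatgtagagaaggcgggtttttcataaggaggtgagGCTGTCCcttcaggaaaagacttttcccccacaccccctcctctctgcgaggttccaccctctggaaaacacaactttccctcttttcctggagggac
Chrm4: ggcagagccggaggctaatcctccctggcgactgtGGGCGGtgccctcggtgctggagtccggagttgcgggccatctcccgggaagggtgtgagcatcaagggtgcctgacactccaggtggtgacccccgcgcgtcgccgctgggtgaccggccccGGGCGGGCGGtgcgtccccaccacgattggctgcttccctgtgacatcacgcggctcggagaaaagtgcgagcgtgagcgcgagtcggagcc

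The motif letters were searched on both strands. Of 32851 promoter windows of this length in the table, 32.74% held the GC box GGGCGG, bound by Sp family factors. Slc18a3 held it at 2 places on the opposite strand, where it reads CCGCCC, and Chrm4 at 3 places, of which 2 overlap. The letters TGACG, which also form part of the cyclic AMP response element TGACGTCA, were in 17.77% of windows and occurred once each in Slc18a3 and Chat, on the opposite strand. GGACAGC, the right part of the site of the neuronal repressor REST, was in 5.28% of windows and occurred in the Lhx8 window on the opposite strand, 98 to 92 bases before the start. TATAAA was in 12.37% of windows and occurred in the Slc5a7 window 187 to 182 bases before the start. TAATTA (4.84% of windows), a core of LIM homeodomain sites, was not in these 5 windows, nor were TGACGTCA (1.55%), the Egr site GCGTGGGCG (0.54%) or TTCAGCACC (0.30%), the left part of the REST site. The GC content was 66% for Slc18a3 and 70.0% for Chrm4, and 45.6% for Slc5a7, 46% for Lhx8 and 54.8% for Chat, against a median of 52.4% over all windows. The starts of Chat and Slc18a3 lie 1059 bases apart on chromosome 14, and Slc18a3 (32462437 to 32464850) falls inside the span of Chat (32408203 to 32465909).

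The choline transporter gene Slc5a7, the vesicular acetylcholine transporter gene Slc18a3, Lhx8 and 2 muscarinic receptor genes fell in R6/2 striatum, while Chat, Ache and Chrm3 did not pass the test. Chat and Chrm3 were dim on all 9 arrays and Chrm4 on 8 of them, by the reference given below. Of the 8 measured genes 5 were lower past the threshold, an adjusted p under 0.05 by limma (Benjamini-Hochberg, over the 18193 genes), and 0 were higher. Over all genes 7.57% were lower and 9.28% higher past this threshold. Of all calls 55.1% were higher, and 23.7% when the arrays were centred on housekeeping genes, which moved the median of all genes to -0.12 and left 5 of the 8 genes past the threshold. The mean of the 5 measured housekeeping genes was itself 0.11 higher in R6/2 mice, and centring lowered every difference by that amount. Of these genes Hprt passed (0.30, adjusted p 0.0112). Sdha was at 0.24, Actb at 0.10, Tbp at -0.02 and Ywhaz at -0.09. The median log2 difference was -0.51 for the 8 genes and -0.02 for all genes. In 4 of the 8 genes the values of the 2 genotypes did not overlap, which held for 17.3% of all genes. Striatal RNA was pooled over all cells of the sample, so fewer cells of a type and less RNA per cell cannot be told apart.

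Slc5a7, the high-affinity choline transporter of cholinergic terminals, had the lowest difference of the 8 genes. It measured 5.33, 5.35, 5.41 and 5.71 in wild-type mice 46, 47, 49 and 66, and 4.14, 4.43, 4.13, 4.81 and 4.68 in R62_86, R62_95, R62_105, R62_107 and R62_109. Every R6/2 mouse lay below every wild-type mouse. Slc5a7 fell by 1.01 ± 0.15 on the log2 scale (SE, adjusted p 0.00147), from 5.45 ± 0.18 (SD, n = 4) to 4.44 ± 0.31 (SD, n = 5). A dim reference came from 39 olfactory receptor genes (Olfr), a family the striatum is not known for, whose means had a median of 3.61 and a 95th percentile of 4.64. Slc5a7 was above 4.64 on 6 of the 9 arrays, and R62_86, R62_95, R62_105 and the R6/2 mean lay in the dim range, so no ratio to the wild-type level is given.

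Slc18a3, the vesicular acetylcholine transporter, measured 6.25, 6.19, 6.43 and 6.43 in the wild-type mice and 5.74, 5.31, 5.17, 5.73 and 5.51 in the R6/2 mice, in the same order. The groups did not overlap, and R62_86 and R62_107 were the highest of the R6/2 mice. It fell by 0.83 ± 0.12 (SE, adjusted p 0.00147), to 0.562 of the wild-type level. In both transporter genes R62_105 was the lowest R6/2 mouse, at 4.13 for Slc5a7 and 5.17 for Slc18a3. The call of each held with any 1 mouse left out.

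Chat, which encodes the enzyme that makes acetylcholine, measured 4.06, 4.06, 3.98 and 4.06 in wild-type animals, against 4.18, 4.01, 4.06, 4.16 and 3.99 in R6/2 mice. The groups overlapped, and 4 of the 9 arrays, 3 of them wild-type, held exactly the same value. The log2 difference was 0.04 ± 0.06 (SE, adjusted p 0.684), with a 95% interval from -0.10 to 0.18. Chat lay below 4.64 on all 9 arrays, within the range of the dim reference, where a change may not be detectable. Its locus partner Slc18a3 was above 4.64 in every mouse.

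Ache, which encodes the enzyme that splits acetylcholine and is also made by noncholinergic cells, measured 7.85, 8.02, 8.10 and 8.20 in wild-type animals, against 8.0, 8.38, 7.87, 8.15 and 7.96 in R6/2 mice. The groups overlapped over most of their range. The log2 difference was 0.03 ± 0.11 (SE, adjusted p 0.884), with a 95% interval from -0.21 to 0.27, so a change as large as that of either transporter gene lies outside the interval. Prima1, whose product anchors acetylcholinesterase in the membrane and which is named here after its value was seen, fell by 0.60 ± 0.12 (SE, adjusted p 0.00699). Its difference was -1.24 when its probe sets were averaged (adjusted p 0.000360), and -0.40 with the mean of cortex markers as a covariate, where the call ended (adjusted p 0.252).

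Lhx8 varied most within wild-type mice. It measured 6.95, 6.97, 7.81 and 7.39 in mice 46, 47, 49 and 66, and 6.40, 6.57, 6.04, 6.97 and 6.15 in the R6/2 mice. R62_107 reached the level of wild-type mice 46 and 47, so the groups overlapped there, and the other 4 R6/2 mice lay lower. Lhx8 fell by 0.86 ± 0.21 (SE, adjusted p 0.0202), to 0.552 of the wild-type level. With wild-type 66 left out the call ended (adjusted p 0.0551), as it did without R62_109 (adjusted p 0.0513) and without limma's moderation of the variance (adjusted p 0.0796).

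**Figure D1:**
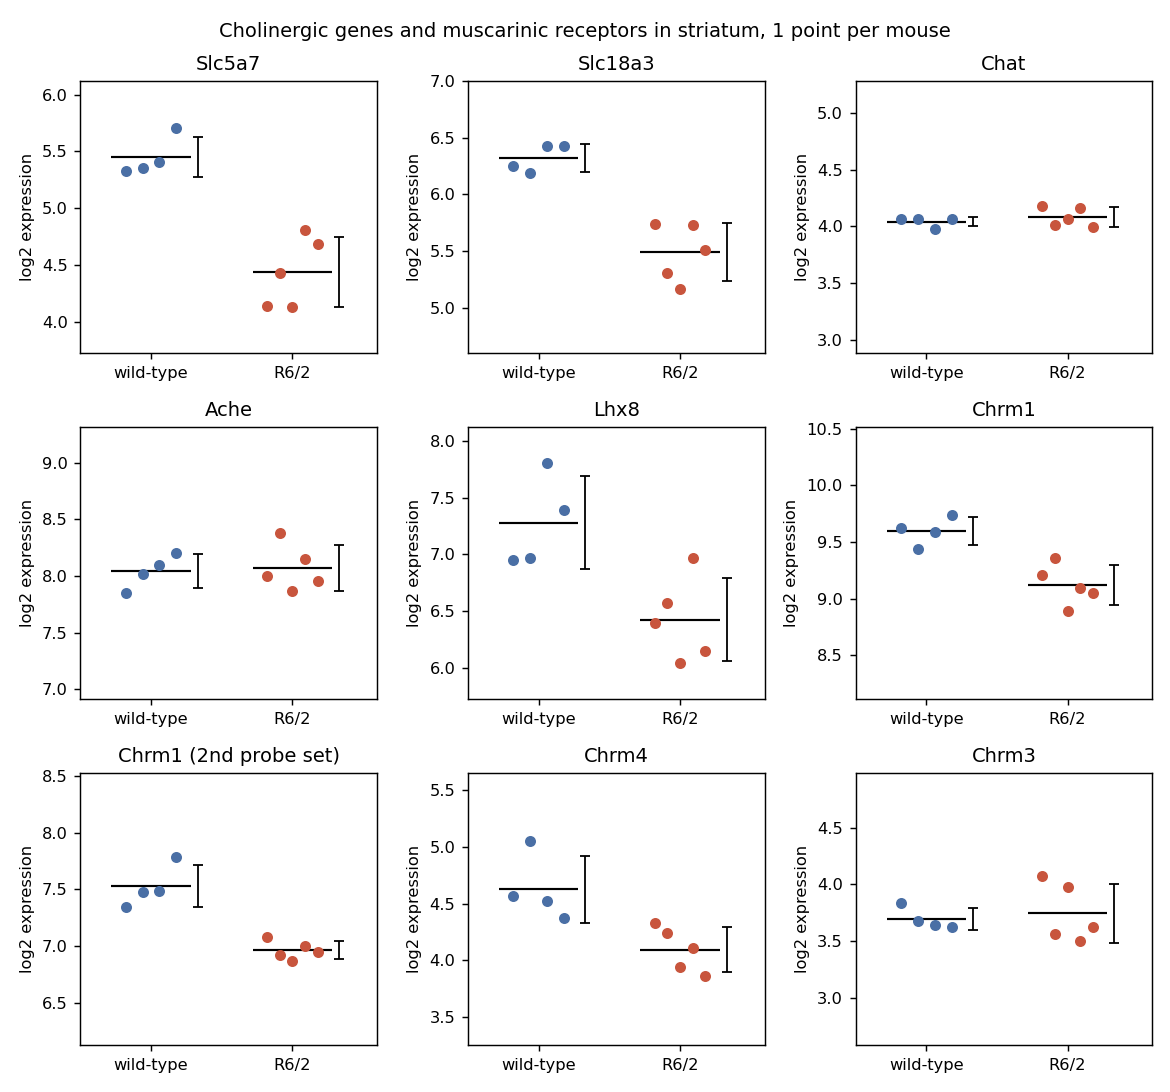
Log2 expression of each probe set (y axis, the same 2.4-unit span in every panel) in 4 wild-type (blue) and 5 R6/2 mice (red), 1 point per mouse, with the group mean as a bar and the SD beside it. The groups are apart for Slc5a7, Slc18a3, Chrm4 and both probe sets of Chrm1, touch for Lhx8, and overlap for Chat, Ache and Chrm3.

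Of the muscarinic receptors, Chrm1, the main Gq-coupled receptor of spiny neurons and of cortical pyramidal cells, was measured by 2 probe sets that both fell. The brighter gave 9.62, 9.44, 9.59 and 9.74 in wild-type animals, against 9.21, 9.36, 8.89, 9.09 and 9.05 in R6/2 mice. All R6/2 mice lay below all wild-type mice, with R62_95 closest to them. Chrm1 fell by 0.48 ± 0.10 (SE, adjusted p 0.00847), to 0.717 of the wild-type level. The other probe set gave 7.35, 7.48, 7.49 and 7.79 against 7.08, 6.92, 6.87, 7.0 and 6.95. It fell by 0.56 ± 0.09 (SE, adjusted p 0.00434 over 45037 probe sets), where 10.4% of all probe sets passed in either direction, and its groups did not overlap either. Chrm1 passed with any 1 mouse left out.

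Chrm4, the Gi-coupled receptor of direct pathway neurons that also serves as an autoreceptor on cholinergic interneurons, measured 4.57, 5.05, 4.52 and 4.37 in wild-type animals, against 4.33, 4.24, 3.94, 4.11 and 3.86 in R6/2 mice. The groups did not overlap, but R62_86 at 4.33 and wild-type mouse 66 at 4.37 lay close together, and wild-type 47 stood highest. Chrm4 fell by 0.54 ± 0.14 (SE, adjusted p 0.0248). The array of wild-type 47 was the only 1 of 9 above the 95th percentile of the olfactory receptor genes (4.64), and both group means, 4.63 and 4.09, lay in the dim range. The call ended without wild-type 47 (difference -0.40, adjusted p 0.0506), R62_105 (adjusted p 0.0591) or R62_109 (adjusted p 0.0597), and without moderation (adjusted p 0.0812).

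Chrm3, a Gq-coupled receptor, measured 3.84, 3.68, 3.64 and 3.62 in wild-type animals, against 4.07, 3.56, 3.98, 3.50 and 3.62 in R6/2 mice. No array reached 4.64, and the groups overlapped, with R62_86 and R62_105 highest. The log2 difference was 0.05 ± 0.12 (SE, adjusted p 0.807), with a 95% interval from -0.22 to 0.32. Centring the arrays on housekeeping genes turned the small differences of Chat, Ache and Chrm3 below 0, to -0.06, -0.08 and -0.06, none of them past the threshold.

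Spiny neuron markers also fell in R6/2 mice, while the mean of cortex markers rose. Of 15 measured shared markers of spiny projection neurons 15 fell, with a median of -1.26 and single values from -2.71 for Scn4b to -0.58 for Meis2. With the mean of cortex markers as a covariate 7 of the 15 passed (median -0.87), and with age in days as a covariate 1 did. Their mean per array was 11.34 to 11.67 in wild-type and 9.72 to 10.50 in R6/2 animals. The differences of Slc5a7, Slc18a3 and Lhx8 lay inside the range of the single spiny markers, and those of Chrm1 and Chrm4 above it. Measured against the spiny marker mean of the same array, 6 of the 8 genes were higher in R6/2 mice past the threshold, as were 98.5% of all genes, so that count is no result about these genes. Slc5a7 (0.22, 95% interval -0.18 to 0.62, adjusted p 0.272) and Lhx8 (0.38, -0.02 to 0.78, adjusted p 0.0615) did not pass, as was the case for 1.38% of all genes. Slc18a3 passed at 0.41 (0.01 to 0.81, adjusted p 0.0469). In this fit limma gave all genes nearly the same SE, 0.20, since the subtracted mean is shared. Each difference here is the gene's own difference shifted by the same amount. Passing therefore follows from the size of the differences given above, and the 1.38% share is no separate result.

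**Figure D2:**
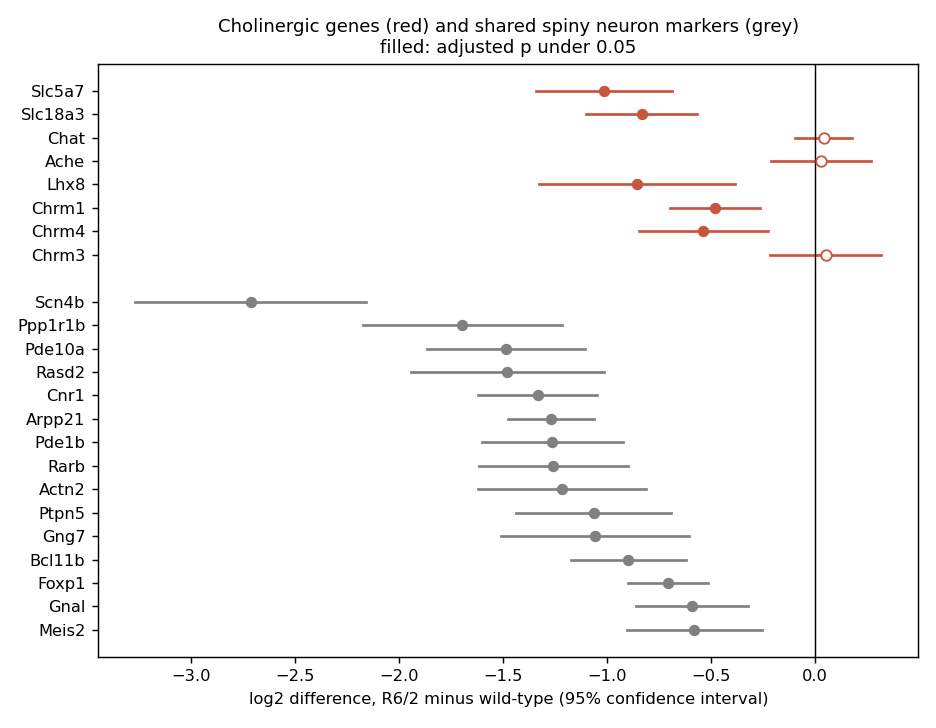
Log2 difference, R6/2 minus wild-type (x axis), with its 95% confidence interval, for the 8 measured cholinergic and muscarinic genes (red) and the 15 shared spiny neuron markers (grey), with filled points past the threshold. Slc5a7, Slc18a3 and Lhx8 lie among the grey points between -0.58 and -2.71, Chrm1 and Chrm4 lie just to the right of them, and Chat, Ache and Chrm3 lie near 0.

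Of 8 measured cortex projection neuron markers 3 were higher and 0 lower past the threshold, at a median of 0.73, and their mean was 5.67 to 6.72 in wild-type and 6.51 to 7.44 in R6/2 animals. Wild-type mice 49 and 66 had the lowest cortex means, 5.95 and 5.67, and the highest Lhx8 values. With the cortex mean as a covariate, 0 of the 8 genes passed. Slc5a7 was then -0.65 ± 0.16 (SE, adjusted p 0.0829), Slc18a3 -0.60 ± 0.16 (adjusted p 0.0903), Chrm4 -0.63 ± 0.21 (adjusted p 0.169), Chrm1 -0.32 ± 0.14 (adjusted p 0.273) and Lhx8 -0.23 ± 0.19 (adjusted p 0.598). All 5 stayed negative. Ache was at 0.30 ± 0.12 (adjusted p 0.247), Chrm3 at -0.22 ± 0.14 (adjusted p 0.489) and Chat at 0.05 ± 0.10 (adjusted p 0.854). In that fit 333 genes passed in all. With age in days as a covariate 0 of the 8 genes and 30 genes in all passed, with Slc5a7 at -1.31 (adjusted p 0.0603), Slc18a3 at -0.59 (adjusted p 0.223) and Lhx8 at -0.88 (adjusted p 0.341). Chrm1 was then at -0.38 (adjusted p 0.359) and Chrm4 at -0.30 (adjusted p 0.609). Age differed with genotype in all mice but R62_86, which alone had the wild-type age. In every fit with age as a covariate the genotype difference is therefore R62_86 minus the wild-type mean. The R6/2 mice aged 83 days enter only its estimated error. Differences and lost calls in these fits thus rest on 1 R6/2 mouse. The part of cortex tissue in the difference of these genes was not tested.

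The basal forebrain and septum, which also hold cholinergic neurons, border the striatum. Of 5 measured markers of these regions 0 passed, and their mean was 5.15 to 5.40 in wild-type and 5.09 to 5.50 in R6/2 animals. Among them, Ngfr, Zic4 and Nkx2-1 also serve below as other markers of cholinergic neurons. Zic4 and Nkx2-1 had both group means in the dim range, under 4.64. Over the 9 arrays, deviations of this mean from the genotype means correlated with those of Slc5a7 at 0.91 and Lhx8 at 0.71. The values were 0.52 for Slc18a3, 0.58 for Ache, 0.30 for Chrm1, -0.30 for Chrm4 and -0.22 for Chat. Chrm3, dim on all 9 arrays, gave -0.89. Such values were not particular to this list. Lhx8 gave 0.92 with the other cholinergic neuron markers, 0.71 with oligodendrocyte, 0.70 with microglia and -0.84 with cortex markers. Slc5a7 gave -0.73 with cortex and 0.67 with shared spiny neuron markers. Of 11 GABA interneuron markers 4 fell, with a mean of 7.43 to 7.59 in wild-type and 7.26 to 7.56 in R6/2 animals. Choroid plexus markers varied most between arrays of 1 genotype, from 5.89 to 9.07 in wild-type and from 5.40 to 7.48 in R6/2 mice, and 0 of 8 passed. Without the 3 arrays with the most choroid plexus signal (wild-type 47 and 66 and R62_107), Slc5a7 (-1.03, adjusted p 0.0209), Slc18a3 (-0.91, adjusted p 0.0271) and Lhx8 (-1.09, adjusted p 0.0489) passed, and Chrm1 (-0.48, adjusted p 0.0897) and Chrm4 (-0.46, adjusted p 0.118) did not. The difference of Chrm1 was -0.48 in both fits, with an SE of 0.135 on the fewer arrays and 0.098 on all 9. Over all genes 882 passed on the fewer arrays, against 3066 on all 9. Of the remaining lists, 6 of 9 astrocyte, 4 of 9 microglia and 3 of 9 oligodendrocyte markers fell, and 0 of 5 endothelial and 0 of 7 thalamus and hypothalamus markers passed. The part of these tissues in the members' differences was not tested.

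**Figure D3:**
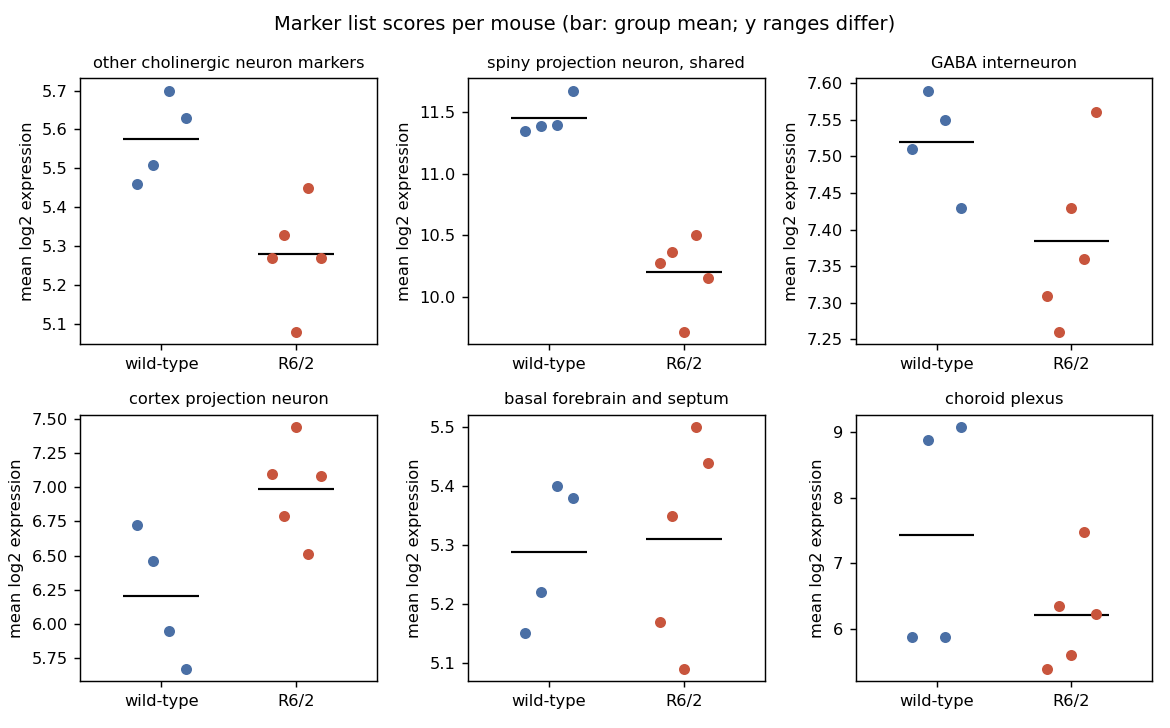
Mean log2 expression of 6 marker lists (y axis, with its own range in each panel) in each wild-type (blue) and R6/2 mouse (red), with the group mean as a bar. Spiny neuron and other cholinergic neuron markers were lower in every R6/2 mouse than in any wild-type mouse, cortex markers overlapped between 6.51 and 6.72, and choroid plexus markers spread from 5.40 to 9.07.

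Other markers of cholinergic neurons moved less uniformly. Of 7 measured ones 2 fell, 0 rose and 5 did not pass, with a median of -0.25, and 3 of the 7 had both group means in the dim range. Ecel1, an endopeptidase-like gene, measured 7.95, 8.06, 8.23 and 8.27 in wild-type animals, against 7.12, 7.59, 6.43, 7.67 and 7.15 in R6/2 mice. The groups did not overlap, R62_105 was lowest, and the difference was -0.94 ± 0.21 (SE, adjusted p 0.0134). Tacr1, the substance P receptor of striatal interneurons, fell by 0.48 ± 0.15 (SE, adjusted p 0.0449), and its call ended in 7 of the 9 fits that left out 1 mouse (it held without wild-type 49 or R62_109). Isl1, a LIM homeodomain factor that acts with Lhx8, gave -0.25 ± 0.15 (adjusted p 0.286), and its values of 7.59 to 8.31 in R6/2 mice overlapped those of 8.11 to 8.53 in wild-type mice. The means of the 7 markers were 5.46 to 5.70 in wild-type and 5.08 to 5.45 in R6/2 animals. With the cortex mean as a covariate 0 of the 7 passed, and Ecel1 was -0.35.

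Among genes that supply choline or partner the cholinesterases, 3 of 11 rose, 2 fell and 6 did not pass, with a median of 0.11. Chkb, a choline kinase that diverts choline towards phospholipid, rose by 0.54 ± 0.10 (SE, adjusted p 0.00514). The genes of the next enzyme of that pathway, Pcyt1a (0.38 ± 0.06, adjusted p 0.00342) and Pcyt1b (0.44 ± 0.08, adjusted p 0.00466), rose as well. In all 3 genes, which had the smallest p of the list, every R6/2 mouse was above every wild-type mouse. The groups did not overlap in 17.3% of all genes. With housekeeping centring Chkb alone of the 3 passed, and when the probe sets of a gene were averaged Pcyt1a (0.14, adjusted p 0.206) and Pcyt1b (0.34, adjusted p 0.0883) did not. Besides Prima1, Acly, which makes cytosolic acetyl-CoA, was lower at -0.29 ± 0.07 (adjusted p 0.0130), and at -0.18 with its probe sets averaged (adjusted p 0.0477). With the cortex mean as a covariate 0 of the 11 genes passed in either direction.

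None of the 15 measured nicotinic receptor subunit genes passed by limma. In 10 of the 15 both group means lay in the dim range, under 4.64, where a change may not be detectable. The differences ran from -0.31 to 0.18, with a median of -0.06. Chrna7, the subunit of homomeric alpha7 receptors, had the smallest p and gave 7.90 to 8.32 in wild-type and 7.37 to 7.90 in R6/2 animals, a difference of -0.31 ± 0.13 (SE, adjusted p 0.116). Chrnb2 (0.18 ± 0.09) and Chrna4 (0.13 ± 0.14), which form the commonest heteromeric brain receptor and are named after their values were seen, did not pass. With housekeeping centring Chrna7 passed (-0.42, adjusted p 0.0463). Of 5 accessory genes 2 fell. Lynx1, a membrane-anchored brake on nicotinic receptors, measured 10.40, 10.67, 10.27 and 10.52 in wild-type animals, against 9.59, 9.50, 9.77, 9.68 and 9.67 in R6/2 mice. That is a gap with no overlap and a difference of -0.82 ± 0.09 (SE, adjusted p 0.000311). Lynx1 did not pass with age in days as a covariate (-0.87, adjusted p 0.0603). It passed with the cortex mean as a covariate. Lypd1, of the same protein family, was at -0.48 ± 0.11 (adjusted p 0.0121), and did not pass with that covariate (-0.26, adjusted p 0.374).

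Genes downstream of muscarinic receptors, which also serve many other receptors, changed in both directions. Of 9 measured genes of the Gq arm 4 fell and 2 rose, with a median of -0.17. Prkcb, a protein kinase C, was at -0.62 ± 0.07 (SE, adjusted p 0.000460), Kcnq5, a subunit of the potassium current that muscarinic receptors close, at -0.73 ± 0.10 (adjusted p 0.000825) and Plcb1, a phospholipase C, at -0.59 ± 0.08 (adjusted p 0.00134). The fourth was Kcnq3 at -0.26 (adjusted p 0.0413), whose call ended in 7 of the 9 fits that left out 1 mouse. Averaged over its probe sets Kcnq3 was at -0.56 (adjusted p 0.000831). The mean of the probe sets of Kcnq5 did not pass (-0.49, adjusted p 0.258). Gnaq, the Gq alpha subunit itself, rose by 0.39 ± 0.07 (adjusted p 0.00363), and Plcb4 by 0.51 ± 0.14 (adjusted p 0.0291), the latter call ending in 5 such fits. Neither rise passed with housekeeping centring, nor did Plcb4 with its probe sets averaged (adjusted p 0.106).

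Of 13 measured genes of the Gi arm 4 fell and 2 rose, with a median of -0.02. Rgs4, which limits M4 autoreceptor signalling in cholinergic interneurons, measured 12.09, 12.00, 12.22 and 12.09 in wild-type animals, against 10.82, 10.29, 9.93, 10.70 and 10.29 in R6/2 mice. It fell by 1.69 ± 0.16 (SE, adjusted p 0.000162), to 0.309 of the wild-type level. Its mean lay at percentile 97.9 of all genes, and pooled striatal RNA does not tell in which cells Rgs4 fell. Rgs9 fell by 1.71 ± 0.20 (adjusted p 0.000463) and Adcy5, the adenylyl cyclase of spiny neurons, by 1.49 ± 0.20 (adjusted p 0.000815), and both are themselves enriched in spiny neurons. Averaging their probe sets gave -1.12 for Rgs9 (adjusted p 0.00749) and -0.54 for Adcy5 (adjusted p 0.00171). Grk5, a receptor kinase, was at -0.63 (adjusted p 0.00477). Gnai1 (0.35 ± 0.08, adjusted p 0.0116) and the inward rectifier gene Kcnj3 (0.95 ± 0.29, adjusted p 0.0437) rose. Gnai1 did not pass with housekeeping centring (0.24, adjusted p 0.0718) or with its probe sets averaged (adjusted p 0.0730). The values of Kcnj3 overlapped, at 6.11 to 7.36 in wild-type and 6.95 to 8.31 in R6/2 animals, its call ended in 7 of the 9 fits that left out 1 mouse, and its difference was 0.01 with the cortex mean as a covariate. With that covariate 0 genes of either arm rose, 1 of the Gq arm fell and 2 of the Gi arm fell. With age in days as a covariate 0 genes passed in any of the 6 lists of acetylcholine signalling, and Rgs4 was at -1.28 (adjusted p 0.0587).

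**Figure D4:**
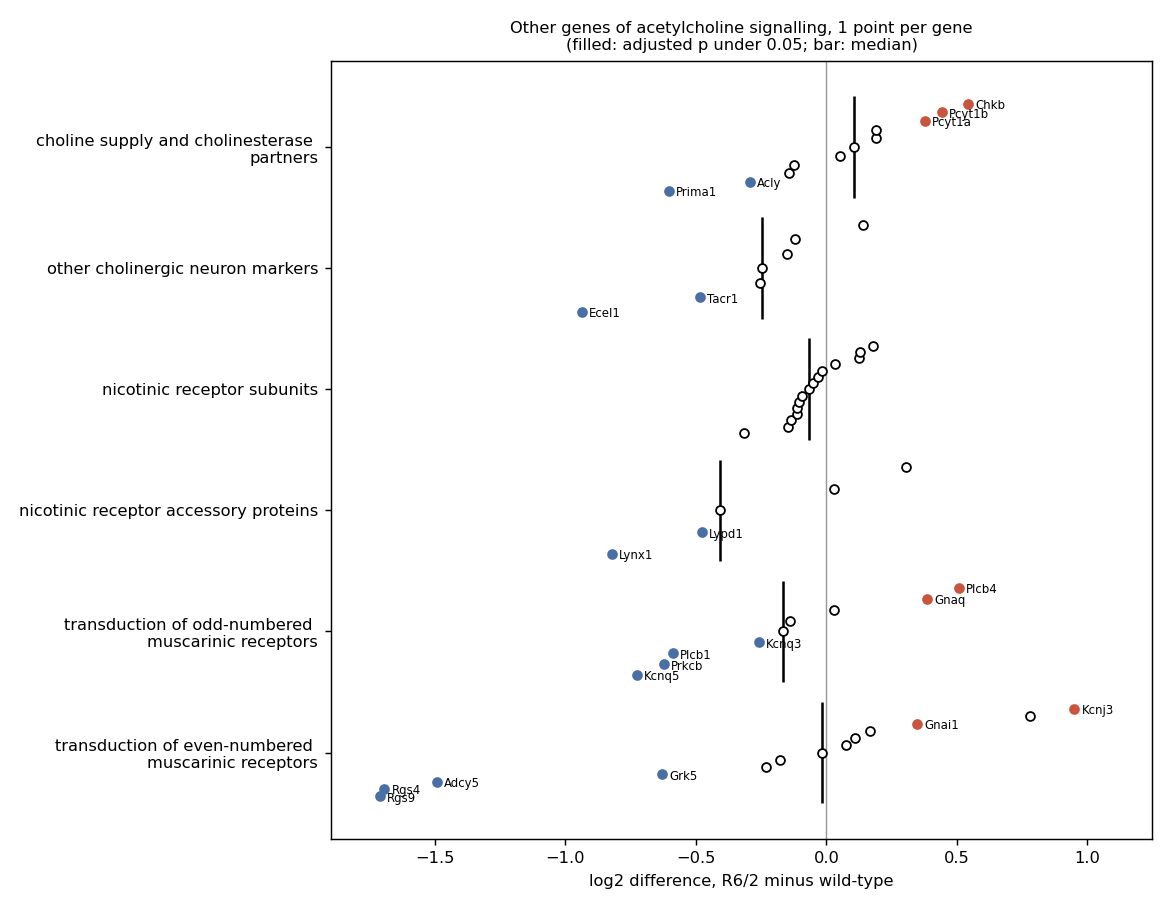
Log2 difference, R6/2 minus wild-type (x axis), of each measured gene in 6 lists of acetylcholine signalling, with filled and named points past the threshold (red higher, blue lower) and the list median as a bar. The nicotinic subunits hold no filled point and lie between -0.31 and 0.18, while the Gi arm spans -1.71 to 0.95.

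Genes whose deviations from the genotype means followed those of a member most closely over the 9 arrays were Acvr1c for Slc18a3 (Pearson r 0.98), B3galt5 for Slc5a7 (0.96), A330094K24Rik for Lhx8 (0.97), Tmem198 for Chrm1 (0.98) and Ghrhr for Chrm4 (0.97). Next came Prdm9 and Trmt44 for Slc18a3, Gm5082 and Chn2 for Slc5a7, Neu2 and Sapcd2 for Lhx8, Kcnh3 and Tmem45a for Chrm1, and Inhba and Slc1a5 for Chrm4. The highest r with another gene had a median of 0.97 over all genes, so these values are those of a typical gene on 9 arrays. Among the members themselves the deviations correlated at 0.62 for Slc18a3 with Lhx8, 0.48 for Slc5a7 with Lhx8 and 0.43 for Slc5a7 with Slc18a3. For Chrm1 with Chrm4 the value was 0.02. These points share arrays and their normalization.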

How the data were processed

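Total RNA of striatum from 9 mice was hybridised to 1 Affymetrix array each. The authors' deposited table holds log2 expression of 45101 probe sets; the submitters' processing notes name RMA and affy, without versions, and which arrays were normalized jointly is not given in the sources here. RMA gives the arrays 1 shared distribution, so a change in total RNA cannot be seen. Array medians lay between 5.37 and 5.45, and correlations of 2 arrays between 0.979 and 0.996. At most 3.93% of values were identical in 2 arrays, so no array was a copy of another. Each array counted as 1 replicate because the labels give separate mice, and the number of arrays limits the precision.

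The platform annotation listed 35890 probe sets, of which 34945 named 1 gene and 932 several; 9211 were not listed. The 64 manufacturer controls were left out. Symbols were updated through RefSeq (GRCm38.p6), where 34741 matched. The probe set with the highest mean stood for each gene, with no filter on dim ones. Genotypes were compared with limma 3.58.1 (lmFit, eBayes) in R 4.3.3, two-sided, adjusted over all genes. Relative values subtracted the mean of the spiny neuron markers of each array. The members and gene lists were chosen with earlier results of these data known. In each pathway list the genes with the 3 smallest p among those past the threshold were named, or the smallest p where none passed; Prima1, Acly, Chrnb2, Chrna4, Isl1, Gnaq, Plcb4, Kcnq3, Gnai1, Kcnj3 and Grk5 were added after their values were seen. Likeness was ranked by Pearson r of deviations from genotype means, 3 genes per changed member. Alternatives are given in the closing section. The fit was tested on simulated data with known differences. Figures used matplotlib 3.10.9 in Python 3.11.15.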

Additional observations from a re-analysis of the deposited data

Results flagged for a closer look

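A total of 84 groups of values (probe sets, marker means and named genes, per genotype) were examined for a sample far from the others, and 3 were found, where chance gives about 5% of groups. For Chat, wild-type mouse 49 was lowest at 3.98, while the other 3 wild-type arrays held 1 identical value, 4.06. For the mean of the shared spiny neuron markers, wild-type mouse 66 was highest at 11.67, against 11.34 to 11.39 in the other wild-type mice; it was also the highest wild-type mouse for Slc5a7 and Chrm1. For the thalamus and hypothalamus markers, R62_109 was highest at 5.80, against 5.16 to 5.33 in the other R6/2 mice.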

How the results depend on the processing

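The 5 lower genes kept their sign under all alternatives run, and 5 passed with the mean of probe sets, quantile normalization, centring on the median or the housekeeping genes, trended robust moderation and array weights. With each mouse left out 3 to 5 members passed. Among the brighter 50% of genes 2 members passed (Lhx8 and Chrm1) of the 3 tested there. Without moderation 2006 genes and 3 members passed, against 3066 and 5. Age is nearly confounded with genotype, as R62_86 alone shares the wild-type age, and with age in days as a covariate 30 genes and 0 members passed (Slc5a7 -1.31, adjusted p 0.0603). With the cortex mean as a covariate 333 genes and 0 members passed, and without the 3 arrays of highest choroid plexus signal 882 and 3.

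Among the members, the signs that turned were those of genes not past the threshold. Ache was -0.0063 with quantile normalization, -0.079 with housekeeping centring, -0.039 with age as a covariate, and -0.049 to 0.081 with 1 mouse left out. Chrm3 was -0.055 with housekeeping centring, -0.22 with the cortex mean as a covariate, and -0.028 to 0.11 with 1 mouse left out. Chat was -0.065 with housekeeping centring. With that centring all genes had a median of -0.12 (-0.02 as deposited), and 23.7% of calls were higher (55.1% as deposited). The count relative to spiny markers was 5 to 7 of 8 under its alternatives. No paired analysis was possible because the genotypes share no mouse numbers and the labels used here name no litter or batch.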
